A study of Mus musculus with 2 samples.

Results

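The S phase and mitosis genes described here are 51 mouse genes, 23 of them active in S phase and 28 in G2 and mitosis, grouped by their known roles in cell division, out of the 17189 genes listed in 2 single-cell libraries of spinal cord ependymal cells. The injured library came from cords taken 3 days after a dorsal funiculus incision, and the uninjured library from intact cords. Both used adult C57BL/6J mice at least 12 weeks old that carried 1 copy of the Troy-CreERT2 allele together with the Rosa26-tdTomato reporter, and in both a 5 mm segment was dissociated and tdTomato-positive cells were sorted. CreERT2 is an inducible recombinase, here driven from the Troy (Tnfrsf19) locus. The sort takes cells with the tdTomato reporter switched on, which need not be every cell in which that driver had been active. The number of animals behind a library is not given in the sources used here. EpA is the authors' name for the ependymal subset they kept, and each of the 12 ependymal markers examined (among them Foxj1, Tmem212, Sox2 and Sox9) was detected in both libraries' EpA cells. Each condition is a single library, so differences between injured and uninjured cells have no replicates behind them and are given without a test. Ranges in brackets are 95% intervals and allow only for counting error.

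Cells copy their DNA in S phase and divide it in mitosis, and the genes for the 2 tasks are switched on in sequence. S phase genes, such as the MCM helicase subunits that unwind DNA and the enzymes that make deoxynucleotides, are controlled largely by E2F transcription factors. G2 and mitosis genes, such as cyclin B, its kinase Cdk1 and the proteins of the spindle and kinetochore, follow later and carry other promoter elements, the cell cycle genes homology region (CHR) and the CCAAT box. Ependymal cells line the central canal with motile cilia, divide rarely in the adult cord and are known to proliferate after injury.

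The promoters of the members differed between the phases, and 7 are shown to set S phase, mitosis and resting-abundant members side by side. Each sequence runs 5′ to 3′ from 250 bases before to 50 bases after the RefSeq transcription start (GRCm38.p6). Capitals mark matches on either strand to an E2F octamer (TTTCCCGC, TTTCGCGC, TTTGCCGC or TTTGGCGC), to the CHR (TTTGAA or TTCGAA) or to the CCAAT box (CCAAT), and adjoining or overlapping matches merge. The windows are Mcm5 chr8:75109259-75109558 on the plus strand, Mcm6 chr1:128359656-128359955 on the minus strand, Cdk1 chr10:69352863-69353162 on the minus strand, Ube2c chr2:164769679-164769978 on the plus strand, Cdc20 chr4:118437294-118437593 on the minus strand, Kif11 chr19:37376132-37376431 on the plus strand and Pttg1 chr11:43425932-43426231 on the minus strand.
Mcm5: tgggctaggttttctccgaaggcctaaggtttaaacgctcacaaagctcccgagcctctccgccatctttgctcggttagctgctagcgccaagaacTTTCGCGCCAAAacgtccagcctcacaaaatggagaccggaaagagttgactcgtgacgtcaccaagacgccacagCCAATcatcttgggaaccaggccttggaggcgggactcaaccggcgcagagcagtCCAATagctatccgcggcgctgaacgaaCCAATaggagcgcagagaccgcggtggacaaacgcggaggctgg
Mcm6: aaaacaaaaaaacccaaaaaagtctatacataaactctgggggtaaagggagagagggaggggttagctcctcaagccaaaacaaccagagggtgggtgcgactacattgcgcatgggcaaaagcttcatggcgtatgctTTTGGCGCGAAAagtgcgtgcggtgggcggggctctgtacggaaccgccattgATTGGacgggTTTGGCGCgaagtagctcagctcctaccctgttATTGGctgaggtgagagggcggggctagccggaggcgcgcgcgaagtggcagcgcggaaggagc
Cdk1: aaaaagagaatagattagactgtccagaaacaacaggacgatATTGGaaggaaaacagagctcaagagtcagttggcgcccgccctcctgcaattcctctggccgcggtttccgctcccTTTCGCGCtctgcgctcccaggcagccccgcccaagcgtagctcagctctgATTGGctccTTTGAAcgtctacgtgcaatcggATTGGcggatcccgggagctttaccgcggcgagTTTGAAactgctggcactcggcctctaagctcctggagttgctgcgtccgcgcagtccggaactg
Ube2c: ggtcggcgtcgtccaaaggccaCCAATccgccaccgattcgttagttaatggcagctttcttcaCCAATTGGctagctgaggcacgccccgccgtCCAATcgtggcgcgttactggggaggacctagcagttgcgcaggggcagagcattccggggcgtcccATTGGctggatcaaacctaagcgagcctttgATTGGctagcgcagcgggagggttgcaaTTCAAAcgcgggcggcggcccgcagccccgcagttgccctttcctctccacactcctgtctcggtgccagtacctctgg
Cdc20: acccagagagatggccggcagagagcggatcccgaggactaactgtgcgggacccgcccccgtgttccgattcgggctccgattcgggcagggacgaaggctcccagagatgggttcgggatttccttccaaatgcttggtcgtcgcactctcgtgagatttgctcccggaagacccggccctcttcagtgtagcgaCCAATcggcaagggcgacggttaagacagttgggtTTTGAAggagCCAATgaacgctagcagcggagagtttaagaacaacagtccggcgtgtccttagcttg
Kif11: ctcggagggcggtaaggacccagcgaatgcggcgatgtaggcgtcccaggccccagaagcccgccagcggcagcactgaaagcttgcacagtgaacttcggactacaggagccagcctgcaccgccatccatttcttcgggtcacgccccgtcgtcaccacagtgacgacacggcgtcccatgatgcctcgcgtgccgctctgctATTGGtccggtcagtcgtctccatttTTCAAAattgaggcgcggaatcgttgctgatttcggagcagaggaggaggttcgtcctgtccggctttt
Pttg1: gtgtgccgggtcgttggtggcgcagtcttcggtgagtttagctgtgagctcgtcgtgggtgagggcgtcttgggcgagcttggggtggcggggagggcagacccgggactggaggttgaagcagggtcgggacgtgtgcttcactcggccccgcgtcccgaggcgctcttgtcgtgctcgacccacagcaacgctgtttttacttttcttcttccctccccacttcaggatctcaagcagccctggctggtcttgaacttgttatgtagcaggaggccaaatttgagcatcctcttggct

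Of the 51 members, 44 had a RefSeq promoter entry, giving 22 windows for the S phase members and 25 for the G2 and mitosis members, against 32851 windows for all genes. Ccne2, Gins2, Mcm4, Ccna2, Tpx2, Aurkb and Smc4 had none. An E2F octamer stood in 45.5% of the S phase windows and 4.0% of the G2 and mitosis windows, against 2.26% of all windows. The CHR stood in 72.0% of the G2 and mitosis windows and 9.09% of the S phase windows, against 19.2% of all. The CCAAT box stood in 80.0% of the G2 and mitosis windows and 63.6% of the S phase windows, against 37.4% of all. Mcm5 and Mcm6 held 2 and 3 E2F matches, Cdk1 was the one G2 and mitosis member with an E2F match and also held 2 CHR matches, and Ube2c held 1 CHR match and 6 CCAAT matches. In the Pttg1 window none of these letters were found. That window lies wholly inside the gene as annotated by GENCODE, whose 5′ end is at 43426251, so bases upstream of that end were not searched. A match describes the letters and not binding.

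The injured library held 1004 EpA cells with 25296289 unique molecular identifiers (UMIs, each standing for 1 captured transcript) and a median of 20158.5 per cell, and the uninjured library 555 EpA cells with 7689179 UMIs and a median of 11387. The median mitochondrial share of UMIs was 6.76% in injured and 11.16% in uninjured EpA cells. The 2 libraries shared 18 barcode sequences. In 9 of these pairs the injured barcode held 120595 to 263269 UMIs and the uninjured one 0.582 to 0.671% of that number, and 4 of those uninjured barcodes were EpA cells, with 4768 UMIs in all and 31 of the 464 core G2 and mitosis UMIs defined below. Without all shared barcodes the counts of members below were unchanged at 17 of 20 and 25 of 28, and their medians were 2.33 and 4.62 on the log2 scale. Scrublet, which looks for 2 cells under 1 barcode, called 3 injured and 1 uninjured EpA cells, which were kept. Whether some deeper cells hold 2 cells was not tested further.

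Summed over EpA cells, nearly all members stood higher in the injured library, and the mitosis genes by far more than the S phase genes. Levels are a gene's share of the library's EpA UMIs scaled to 1000000 (CPM), from 3′ tags that are not scaled by gene length. A member counts as measured where its 2 library levels average 5 CPM or more. Of 20 measured S phase members 17 were at least 2-fold higher in injured cells and 0 lower by that much, and their median log2 ratio was 2.35. Of 28 measured G2 and mitosis members 25 were at least 2-fold higher and 1, Pttg1, was lower, with a median of 4.59. By the same rule 10.9% of 10527 genes were higher and 11.3% lower, with a median of −0.03. A ratio of at least 8-fold was reached by 4 of the 20 S phase and 22 of the 28 G2 and mitosis members, against 2.39% of all genes. These sums weight deep cells more. With each cell thinned to 5000 UMIs the S phase count was 9 of 16 with a median of 1.10, and the G2 and mitosis count 23 of 26 with a median of 3.77. With every cell weighted alike the medians were 1.25 and 2.02. Without 1 uninjured cell described below the G2 and mitosis median was 5.26.

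**Figure D1:**
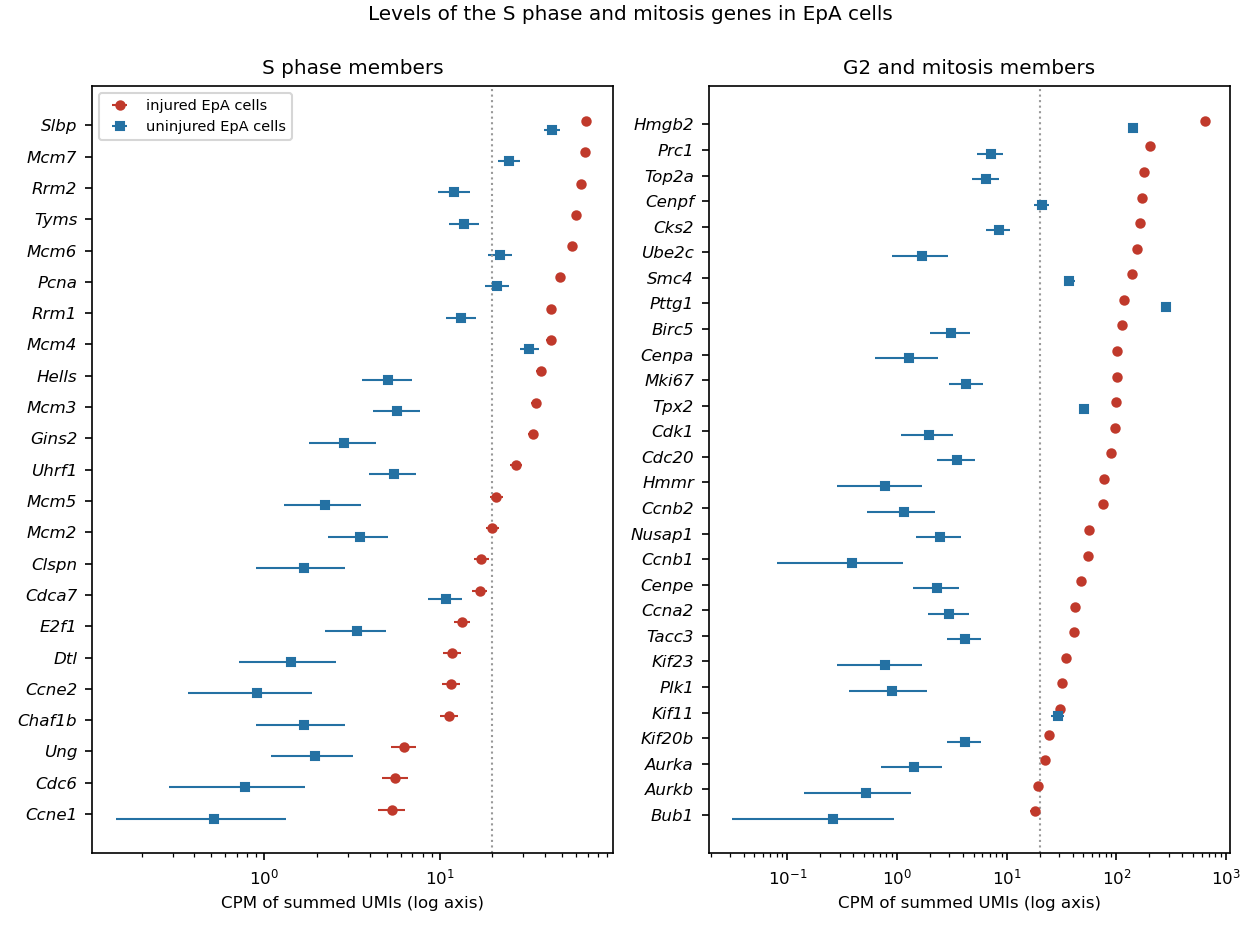
CPM of each member (log axis) summed over injured EpA cells (red circles) and uninjured EpA cells (blue squares), with exact 95% Poisson intervals for counting error; the dotted line marks 20 CPM. Every member except Pttg1 has its red point at or right of its blue one, Kif11 has both at about 30 CPM, and the gaps are wider on the G2 and mitosis side.

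Among the subunits of the MCM helicase, 5 of 6 were at least 2-fold higher in injured cells. Mcm5 had 21.0 CPM (19.3 to 22.9) in injured cells against 2.21 CPM (1.29 to 3.54) in uninjured cells, a 9.51-fold ratio (5.88 to 16.5). Mcm2 had 20 CPM against 3.51 CPM, and Mcm3 35.5 CPM against 5.72 CPM, in injured and uninjured cells. These were the subunits with the lowest uninjured levels. Mcm6 (57.0 against 22.1 CPM) and Mcm7 (67.8 against 24.8 CPM) rose 2.58-fold and 2.73-fold, and Mcm4 stood at 43.1 CPM in injured against 32.5 CPM in uninjured cells, a ratio of 1.33 (1.15 to 1.53).

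Gins2, a part of the active helicase, had 34.0 CPM in injured and 2.86 CPM in uninjured cells, an 11.9-fold ratio (7.79 to 19.0). Cdc6, which loads the helicase at origins, had 5.57 CPM in injured and 0.780 CPM in uninjured cells and fell under the floor of 5 CPM. At the fork, the sliding clamp Pcna had 48.4 CPM against 21.2 CPM, the checkpoint mediator Clspn 17.3 CPM against 1.69 CPM, and Dtl, which targets proteins for destruction on chromatin during S phase, 11.8 CPM against 1.43 CPM, each in injured against uninjured cells. The clamp changed least of the 3, at 2.28-fold. For nucleotide supply, the ribonucleotide reductase subunit Rrm2 had 64.3 CPM in injured and 12.1 CPM in uninjured cells, and its partner Rrm1 43.4 CPM against 13.3 CPM. Thymidylate synthase, Tyms, had 59.5 CPM in injured and 13.8 CPM in uninjured cells, a 4.32-fold ratio (3.54 to 5.31). The uracil glycosylase Ung stood at 6.25 CPM against 1.95 CPM and was not measured by the floor.

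The genes that rebuild chromatin behind the fork split. Hells, a chromatin remodeller, had 38.0 CPM in injured and 5.07 CPM in uninjured cells, and Uhrf1, which directs maintenance of DNA methylation, 27.3 CPM against 5.46 CPM. The histone chaperone subunit Chaf1b had 11.3 CPM in injured and 1.69 CPM in uninjured cells, of which 61.5% of the UMIs came from 1 cell. Cdca7, a partner of Hells, did not pass 2-fold, at 16.9 CPM in injured and 10.8 CPM in uninjured cells, and neither did Slbp, which binds histone mRNA, at 68.0 CPM against 43.8 CPM. The G1/S regulators were sparse: Ccne2 had 11.6 CPM in injured and 0.910 CPM in uninjured cells, a 12.8-fold ratio (6.12 to 32.0) and the largest of the measured S phase members. E2f1 had 13.4 CPM in injured and 3.38 CPM in uninjured cells, and Ccne1, under the floor, 5.34 CPM against 0.520 CPM.

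All 5 mitotic cyclins and partners of Cdk1 were higher in injured cells. Ccnb1, cyclin B1, had 55.1 CPM (52.3 to 58.1) in injured cells and 3 UMIs in all, or 0.390 CPM (0.0805 to 1.14), in uninjured cells, a ratio of 141 (48.2 to 686). Ccnb2 had 74.9 CPM in injured and 1.17 CPM in uninjured cells, and the kinase Cdk1 96.6 CPM against 1.95 CPM. Cyclin A2, Ccna2, which acts in both S phase and G2, had the smallest ratio of the 5, with 41.7 CPM in injured and 2.99 CPM in uninjured cells, 13.9-fold (9.24 to 22.1). Cks2, a small subunit of the Cdk complexes, had 165 CPM in injured and 8.45 CPM in uninjured cells.

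The mitotic kinases and the chromosomal passenger complex, which corrects the attachment of chromosomes, were also higher in all 5 members. Birc5, survivin, had 113 CPM in injured and 3.12 CPM in uninjured cells, a 36.3-fold ratio (24.4 to 56.8). Its kinase Aurkb had 19.4 CPM against 0.520 CPM, and the centrosomal kinase Aurka 22.3 CPM against 1.43 CPM. The kinase Plk1 had 32.1 CPM in injured and 0.910 CPM in uninjured cells. Bub1 of the spindle checkpoint had 18.1 CPM in injured cells, and its 2 UMIs in uninjured cells came from 1 cell. At the kinetochore, the centromeric histone Cenpa had 102 CPM in injured and 1.30 CPM in uninjured cells, the motor Cenpe 47.2 CPM against 2.34 CPM, and the matrix protein Cenpf 169.9 CPM against 20.8 CPM. Cenpf was the only one of the 3 in which uninjured cells passed 20 CPM.

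The 8 spindle and midzone genes covered the widest range. Prc1, which bundles midzone microtubules, had 201 CPM in injured and 7.15 CPM in uninjured cells, and Hmmr, a spindle assembly factor, 76.4 CPM against 0.780 CPM, a ratio of 97.9 (44.9 to 267). Nusap1 had 56.4 CPM in injured and 2.47 CPM in uninjured cells, Tacc3 41.0 CPM against 4.16 CPM, and the kinesins Kif23 and Kif20b 35 against 0.780 CPM and 24.5 against 4.16 CPM. Tpx2, which activates Aurka on the spindle, and the bipolar motor Kif11 stayed between the limits, with 99.3 CPM in injured against 50.3 CPM in uninjured cells for Tpx2, a ratio of 1.97 (1.77 to 2.20), and 30.3 CPM against 29.1 CPM for Kif11, a ratio of 1.04 (0.895 to 1.21). Under TMM scaling the log2 ratio of Tpx2 was 1.05, against 0.98 without it, and so passed 2-fold. All 4 genes of chromosome structure were higher: Mki67, which coats mitotic chromosomes, at 101 CPM in injured and 4.29 CPM in uninjured cells, the topoisomerase Top2a at 178 CPM against 6.5 CPM, the condensin and chromatin genes Smc4 at 139.9 CPM against 37.2 CPM and Hmgb2 at 646 CPM against 141 CPM. Of the anaphase genes, Ube2c, the ubiquitin-conjugating enzyme of the anaphase promoting complex, had 155 CPM in injured and 1.69 CPM in uninjured cells, and its activator Cdc20 89.1 CPM against 3.51 CPM. Pttg1, securin, which holds separase inactive until anaphase, had 117 CPM (113 to 122) in injured and 285 CPM (273 to 297) in uninjured cells, a ratio of 0.412 (0.390 to 0.436).

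Much of the uninjured mitosis signal came from 1 cell. This EpA cell held 20239 UMIs and 158 of the 464 UMIs of core G2 and mitosis members in uninjured EpA cells, with 27 of the 33 Mki67 UMIs, 33 of the 55 Prc1 UMIs and, at 5000 UMIs, 11 core S phase and 13 core G2 and mitosis genes. It also carried 3 Foxj1 and 6 Tmem212 UMIs. In injured EpA cells the most UMIs of these members in 1 cell were 1375 of 44157.

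To count genes per cell at equal depth, UMIs were drawn down to 5000 in every cell, leaving 972 injured and 539 uninjured EpA cells and omitting 32 and 16 shallower ones. The counts used the 40 core members, 18 of S phase and 22 of G2 and mitosis, with under 20 CPM in uninjured EpA cells. Since these same uninjured cells set the limit, it favours low counts in them, and the contrast with injured cells is partly fixed by it. Core levels there went up to 13.8 CPM (Tyms), and the other 11 members began at 20.8 CPM (Cenpf). In injured EpA cells 80 of 972 (8.23%, 6.58 to 10.1) held 10 or more core G2 and mitosis genes, against 1 of 539 (0.186%, 0.00470 to 1.03) in uninjured cells. For core S phase genes 13 injured cells (1.34%) and 1 uninjured cell (0.186%) reached 10 or more. The highest number in a cell was 21 G2 and mitosis genes and 17 S phase genes in injured cells, against 13 and 11 in uninjured cells. Injured cells with none of the core S phase genes made up 63.5%, against 71.2% of uninjured cells, and with none of the core G2 and mitosis genes 65.8% against 86.3%.

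**Figure D2:**
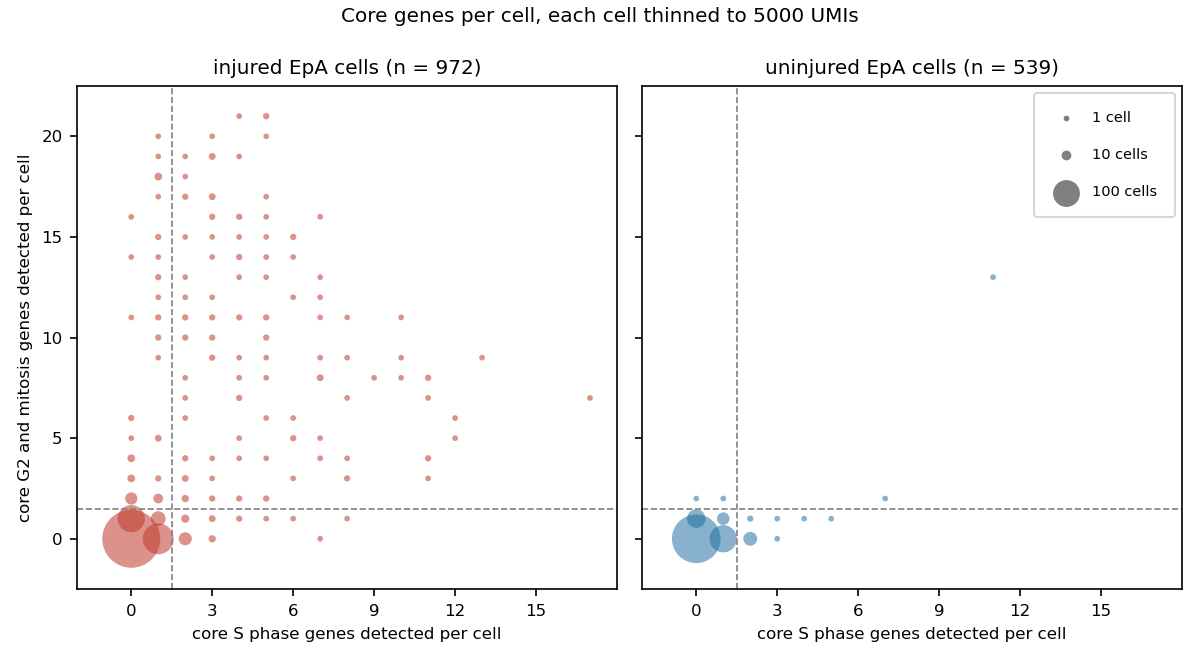
Number of core S phase genes (horizontal) and core G2 and mitosis genes (vertical) detected in each EpA cell at 5000 UMIs, in 972 injured cells (left) and 539 uninjured cells (right); the area of a point grows with the number of cells and dashed lines mark the limit of 2 genes. Injured cells spread upward to 21 G2 and mitosis genes, while uninjured cells stay at 2 or fewer but for 1 cell with 13.

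Cells were sorted into 4 ranges, with 2 core genes as the limit in each phase. Both phases were present in 119 injured EpA cells (12.2%, 10.2 to 14.5), against 2 uninjured ones (0.371%, 0.0450 to 1.33). G2 and mitosis genes alone were present in 68 injured cells (7.0%, 5.47 to 8.78), against 2 uninjured ones (0.371%, 0.0450 to 1.33). S phase genes alone did not separate the libraries, at 40 injured cells (4.12%, 2.96 to 5.56) and 30 uninjured cells (5.57%, 3.79 to 7.85). The rest, 745 injured and 505 uninjured cells, had under 2 of either. Without thinning, the shares in injured and uninjured cells were 26.4% and 2.34% with both, 8.67% and 6.31% with G2 and mitosis alone and 13.9% and 19.3% with S phase alone. A second random thinning gave 3.70% of injured and 3.53% of uninjured cells with S phase genes alone, and a limit of 3 genes gave 1.95% and 0.928%. Counting all members in place of the core ones gave 22.3% of injured and 17.1% of uninjured cells with both phases. G2 and mitosis genes alone were then in 33.2% of injured and 48.6% of uninjured cells, and S phase genes alone in 9.16% and 6.68%. These are ranges and not cell types, since 25.3% of injured and 27.6% of uninjured cells held 1 or 2 core S phase genes, and 18.8% and 13.5% held 1 or 2 core G2 and mitosis genes.

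The S phase range of uninjured cells was thin in genes. Exactly 2 core S phase genes were found in 26 of its 30 uninjured cells (86.7%), against 27 of 40 injured cells (67.5%). In the uninjured cells the commonest were Rrm1 (43.3%), Tyms (30%) and Cdca7 (26.7%), which were among the core members with the highest uninjured levels. In the injured cells they were Tyms (37.5%), Rrm1 (30%), Mcm2 (25%) and Mcm3 (25%). Across the libraries, the S phase result rested on cells that also held mitosis genes. When EpA cells with at least 2 core G2 and mitosis genes were left out, 1 of 12 measured S phase members was at least 2-fold higher in injured cells and the median log2 ratio was 0.15. The reverse was not so: without cells holding at least 2 core S phase genes, 20 of 25 measured G2 and mitosis members were still at least 2-fold higher, with a median of 3.46. The first of these leaves out injured cells mostly, so it describes where the S phase UMIs were and is no measure of S phase entry. The second also leaves out injured cells mostly, 159 against 32 uninjured ones. It keeps the 68 injured and 2 uninjured cells picked for holding G2 and mitosis genes alone, so its outcome largely follows from those counts.

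The ranges differed in more than the members. Injured cells with both phases had a median of 54017 UMIs, those with G2 and mitosis alone 30619, those with S phase alone 21676.5 and those with neither 17274, and the first 3 together held 41.5% of injured EpA UMIs in cells of at least 5000 UMIs. Median mitochondrial shares were 3.62%, 4.34%, 6.93% and 7.56% in the same order. The summed level of the 12 ependymal markers was 1175 CPM with both phases, 1888 CPM with G2 and mitosis alone, 3625 CPM with S phase alone and 5212 CPM with neither, against 10443 CPM in uninjured cells with neither. Foxj1, the master regulator of motile cilia, followed this order, with 69.3, 123, 184 and 330.1 CPM, and Tmem212, a marker of mature ependyma, more steeply, with 15, 58.2, 306 and 569.8 CPM. Sox2, a neural progenitor factor, varied less, with 391, 525, 643 and 752 CPM. Among markers of other types, the 12 endothelial ones summed to 22.3 CPM with both phases, 21.3 CPM with G2 and mitosis alone and 12.7 CPM with S phase alone, against 17.6 CPM with neither, with 0, 3, 7 and 0 of them at 0. The 14 markers of microglia and macrophages summed to 5.74 to 9.07 CPM in the 3 ranges with core genes of either phase against 11.4 CPM with neither, and the 5 of neutrophils to at most 0.410 CPM against 0.0678 CPM. The 7 markers of T, B and NK cells reached 19.9 CPM with S phase alone against 0.475 CPM with neither. The 9 pericyte and smooth muscle markers stood at 869.8 CPM with both phases, 540.2 CPM with G2 and mitosis alone and 2069 CPM with S phase alone, against 656 CPM with neither, with 2, 4, 6 and 2 of the 9 at 0. Their part in the results was not tested.

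Within injured EpA cells, each member was then placed in ranges made without that member. The other members made the ranges, so these levels are descriptions. Of 23 S phase members 22 were highest in cells with both phases, and 21 were lower in cells with G2 and mitosis genes alone than in cells with S phase genes alone, by a median of −1.16 on the log2 scale. Tyms and Rrm1 were the exceptions, with 58.9 CPM and 50.1 CPM in the G2 and mitosis range against 39.8 CPM and 39.1 CPM in the S phase range. The G1/S cyclins were low in the G2 and mitosis range: Ccne2 had 24.9 CPM in the S phase range, 37.0 CPM with both phases and 1.61 CPM in the G2 and mitosis range. Ccne1 had 15.4, 15.8 and 0.410 CPM in those ranges. E2f1 kept a higher level there, with 21.7, 36.3 and 9.14 CPM, against 3.04 CPM with neither phase. Cdc6, with 15.4, 17.6 and 0.410 CPM, and Ung, with 32.8, 13.6 and 1.23 CPM, were as low as the cyclins in the G2 and mitosis range. The S phase range levels of Ccne2, Ccne1, Cdc6 and Ung rested on few UMIs, 27, 17, 17 and 35. In the G2 and mitosis range they held 4, 1, 1 and 3 UMIs. After thinning they were detected in 2 of 39, 1 of 40, 1 of 40 and 1 of 38 cells of the S phase range. Their contrast between these ranges may thus depend on a few cells, which was not tested. Some replication genes stood higher than these genes in the G2 and mitosis range. Mcm6 had 89.8, 133 and 52.1 CPM, Gins2 52.1, 96.3 and 30.3 CPM, and Rrm2 50.4, 208 and 36.2 CPM. Others were further below their S phase range level, such as Mcm4, with 69.8, 98.3 and 23.0 CPM. Of the MCM subunits, Mcm6 had the highest ratio of the G2 and mitosis range to the S phase range, 0.580, and Mcm4 the lowest, 0.329.

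Of 28 G2 and mitosis members 27 were higher in the G2 and mitosis range than in the S phase range, by a median of 3.65 on the log2 scale over all 28, and Pttg1 was the exception. The widest gaps among members detected in both ranges were those of Cdc20, with 252 CPM against 1.81 CPM, a ratio of 139 (38.4 to 1152), and of Hmmr, with 188 CPM against 1.75 CPM, a ratio of 107 (29.5 to 887). Nusap1 had 102 CPM in the G2 and mitosis range and 0 UMIs in the S phase range. Plk1 had 72.1 CPM in the G2 and mitosis range against 0.907 CPM in the S phase range, and Ccnb1 131 CPM against 2.72 CPM. All of these act in mitosis itself. The narrowest gaps were those of Smc4, at 179.9 against 74.4 CPM, Kif20b, at 43.5 against 8.54 CPM, Hmgb2, at 1220 against 238 CPM, and Cdk1, at 146 against 28.3 CPM. Cells of the S phase, G2 and mitosis and both-phase ranges together held a median of 98% of the UMIs of a G2 and mitosis member and 90.9% of those of an S phase member, with the lowest values for Pttg1 (29.3%) and Slbp (68.2%).

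**Figure D3:**
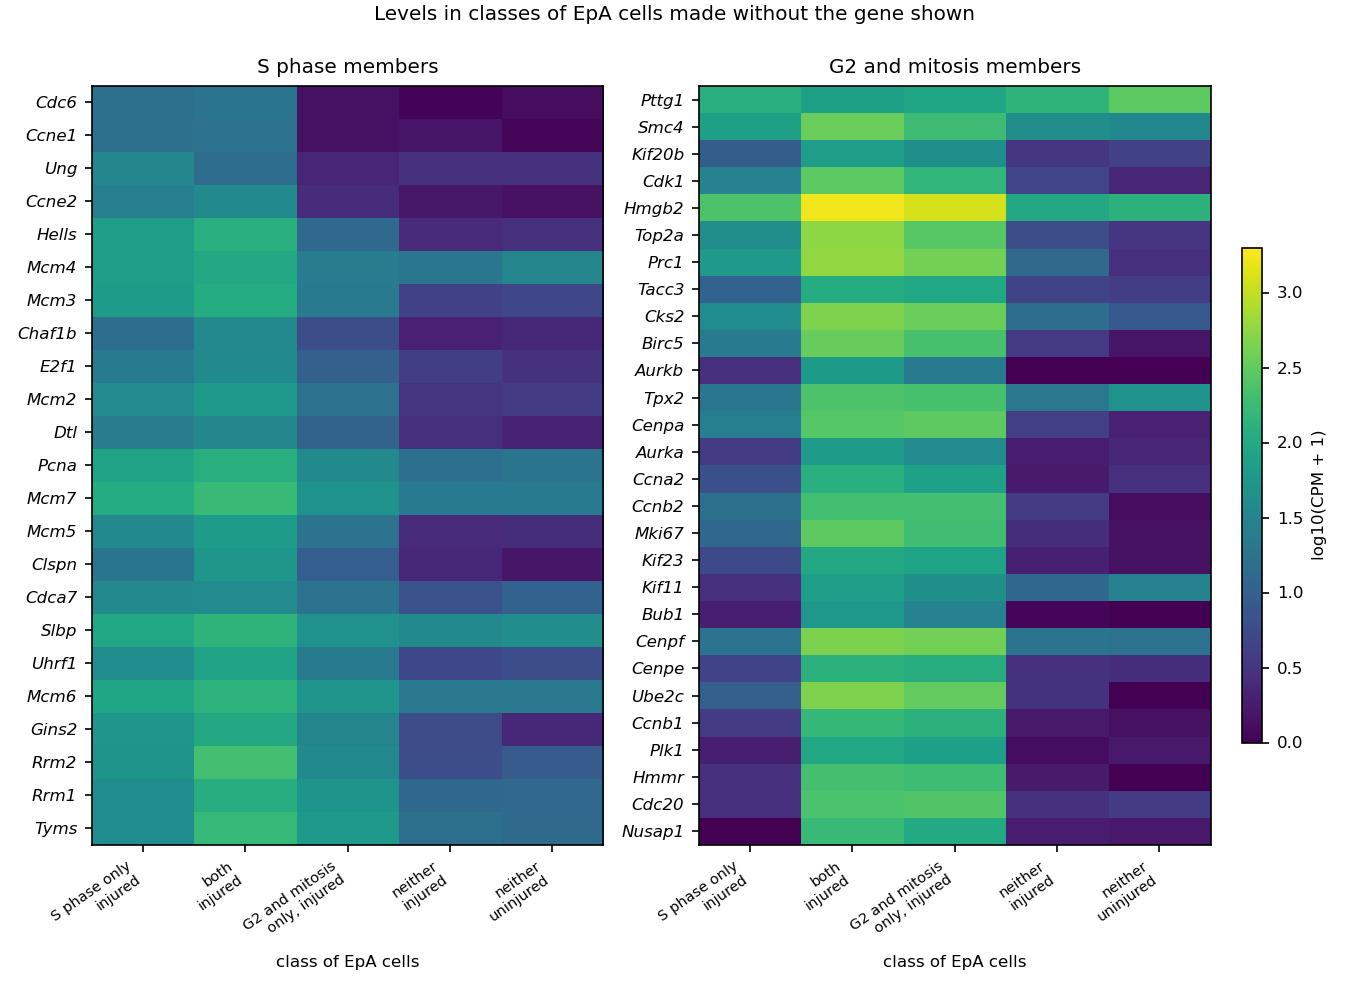
Level of each member as log10(CPM + 1) in injured EpA cells with S phase genes only, both, G2 and mitosis genes only or neither, and in uninjured cells with neither, with ranges made without the gene shown; rows are ordered by the ratio of the G2 and mitosis range over the S phase range. Ccne1, Ccne2, Cdc6 and Ung are dark in the third column, and Pttg1 is higher in the last column than in the other 4.

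Pairs of genes were also read in the same cells at 5000 UMIs. Ccnb1 was found in 66 injured EpA cells, of which 84.8% also held Ccnb2, 90.9% Cenpf and 81.8% Cdc20, against 5.41%, 11.3% and 4.42% of the 906 cells without it. Cdc6 and Ccne1 were in 0 of the 66 Ccnb1 cells, against 13 (1.43%) and 12 (1.32%) of the 906 without it, too few to show a difference. Ccne2 was in 4.55% of the Ccnb1 cells (0.947 to 12.7), against 2.54% of the cells without it. Ccne2 was found in 26 cells, of which 73.1% held Top2a, 65.4% Cdk1 and 11.5% Ccnb1, against 10.1%, 8.46% and 6.66% of the 946 cells without it. Most Ccne2 cells thus held Top2a and most held Cdk1, and these shares do not give the number holding both. Mki67 was found in 100 cells, of which 67.0% held Top2a and 34.0% Pttg1, against 5.50% and 47.8% of the 872 cells without it. Cells of 1 library are not replicates, and these shares describe this library.

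The 11 members at or above 20 CPM in uninjured EpA cells (Mcm4, Mcm6, Mcm7, Pcna, Slbp, Tpx2, Cenpf, Kif11, Smc4, Hmgb2 and Pttg1) were also compared in cells with neither phase. These 11 were picked for their level in uninjured EpA cells, which favours lower injured levels, so the contrast is partly fixed by that limit. In cells with neither phase, injured levels of 3 of them were under the uninjured ones by 2-fold or more. Pttg1 had 141 CPM (135 to 148) in injured and 289 CPM (277 to 302) in uninjured cells, a ratio of 0.489 (0.460 to 0.520). Tpx2 had 19.6 CPM (17.4 to 22) in injured and 48.9 CPM (43.9 to 54.3) in uninjured cells, a ratio of 0.401 (0.342 to 0.469). Kif11 had 11.6 CPM (9.92 to 13.5) in injured and 28.2 CPM (24.4 to 32.4) in uninjured cells, a ratio of 0.411 (0.334 to 0.507). With every cell weighted alike the levels in injured and uninjured cells were 169 and 289 CPM for Pttg1 and 26 and 46.7 CPM for Tpx2, both short of 2-fold, and 14 and 29 CPM for Kif11, past it. The near-equal sums of Kif11 thus combined a lower level in cells with neither phase and 70.3 CPM in injured cells with both. Of all genes in these cells 5.58% fell by that much and 6.59% rose by it. That wider set was not picked by its uninjured level, so the shares are not alike in kind.

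The other resting-abundant members changed less in cells with neither phase. Mcm4 had 18.5 CPM in injured and 30.4 CPM in uninjured cells, and Hmgb2 96.0 CPM against 131 CPM. Slbp (37.0 against 40.4 CPM), Smc4 (41.6 against 34.2 CPM), Mcm7 (22.6 against 22.2 CPM), Mcm6 (19.9 against 19.8 CPM), Pcna (15.1 against 17.7 CPM) and Cenpf (17.8 against 16.5 CPM) differed less between injured and uninjured cells. Prc1, a core member, went the other way: it had 13.0 CPM (11.3 to 15) in injured and 1.82 CPM (0.970 to 3.12) in uninjured cells with neither phase, and was the 1 member at least 2-fold higher of the 8 G2 and mitosis members measured there. With every cell weighted alike, in a range made with Prc1 itself among the core genes, it had 7.08 CPM in injured and 2.06 CPM in uninjured cells, against 10.5 CPM and 1.82 CPM by sums. None of the 9 S phase members measured there passed 2-fold either way. Members under the floor of 5 CPM were not counted, and some were also higher in injured cells with neither phase. The ratios were 9.82 (2.55 to 83.8) for Ccnb2, 4.70 (1.70 to 18.1) for Birc5, 2.47 (1.41 to 4.62) for Top2a and 3.36 (1.72 to 7.32) for Gins2. In uninjured cells they held 2, 4, 15 and 10 UMIs. Not all went that way: Ccna2 was lower, at 0.409, and so was Plk1, at 0.387 (0.0768 to 1.80). In cells with none of the 40 core genes, 480 injured and 337 uninjured, the log2 ratios were −0.93 for Pttg1, −1.16 for Tpx2, −1.10 for Kif11 and 2.95 for Prc1.

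**Figure D4:**
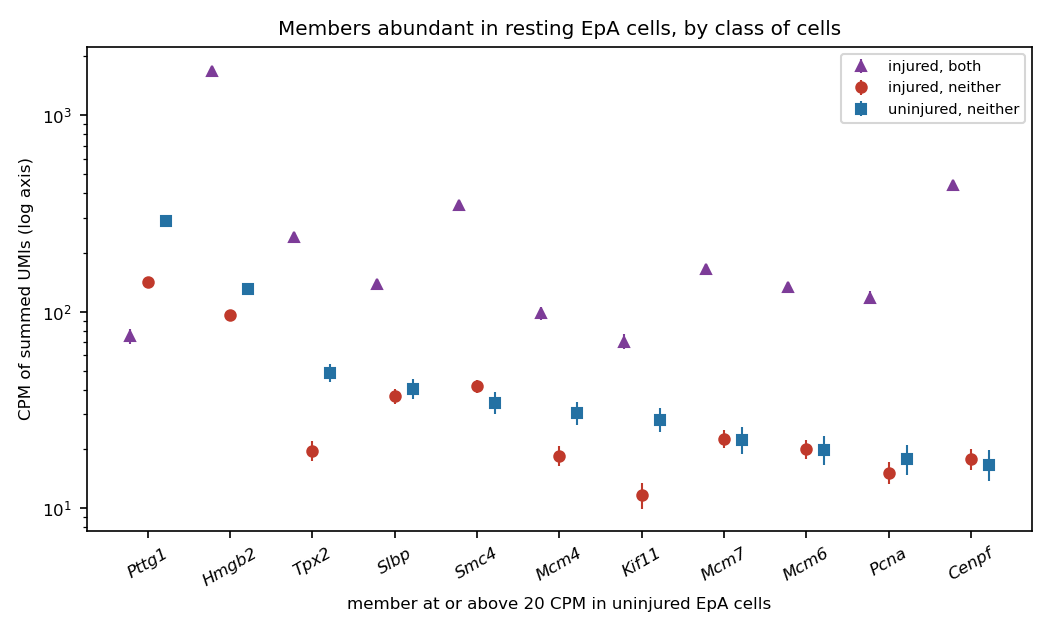
CPM (log axis) of the 11 members at or above 20 CPM in uninjured EpA cells, in injured cells with both phases (triangles), injured cells with neither (circles) and uninjured cells with neither (squares), with exact 95% Poisson intervals for counting error. Pttg1 is lowest in cells with both phases (74.8 CPM), and Tpx2 and Kif11 are high there but lower in injured than in uninjured cells with neither.

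At equal depth the share of cells with a UMI was also compared. Pttg1 was detected in 46.4% (43.2 to 49.6) of injured and 72.9% (68.9 to 76.6) of uninjured EpA cells at 5000 UMIs, and in 85.1% and 93.0% without thinning. Hmgb2 was detected in 46.3% (43.1 to 49.5) of injured and 47.7% (43.4 to 52.0) of uninjured cells, although its summed level was 4.57-fold higher in injured cells. Without thinning it was detected in 77.3% and 74.6%. Tpx2 was detected in 20.6% of injured and 21.5% of uninjured cells, and Mcm4 in 13.1% and 15.4%. Mki67 by contrast was detected in 10.3% (8.45 to 12.4) of injured and 0.371% (0.0450 to 1.33) of uninjured cells at 5000 UMIs, and in 17.1% and 1.08% without thinning. In injured cells with neither phase, a range made without Mki67 that still allows 1 core gene of each phase, 6 of 746 (0.804%) held it at that depth. Median depths before thinning were 20491.5 UMIs in injured and 11531 UMIs in uninjured cells. Outside EpA, Pttg1 was detected in 21.4% of injured and 36.6% of uninjured cells at 5000 UMIs. Injured Pttg1 was also lower where mitosis genes were present, with 74.8 CPM in cells with both phases and 88.9 CPM in the G2 and mitosis range, against 141 CPM with neither. The thinned log2 ratio of Pttg1 between libraries was −0.87, short of 2-fold. In the uninjured library, EpA cells were set against the sum over kept cells outside EpA, with shared barcodes left out of the latter only. The resting-abundant members were picked for their level in these same EpA cells, so an excess there is partly built in. EpA cells exceeded that sum 5.80-fold (3.21 to 11.7) for Tpx2, 4.4-fold (1.98 to 12.2) for Cenpf, 3.36-fold (1.84 to 6.83) for Kif11, 3.20-fold (2.65 to 3.90) for Pttg1 and 2.43-fold (1.48 to 4.23) for Mcm4. Hmgb2 (0.532, 0.470 to 0.603), Pcna (0.489, 0.358 to 0.676) and Smc4 (0.704, 0.538 to 0.933) were lower in EpA cells than in that sum. For Mcm6, Mcm7 and Slbp the interval included 1. The sum mixes cell types and includes the 3 uninjured cells with both phases described below. In the astrocyte-like, fibroblast-like, microglia and macrophage-like and unnamed clusters given below, uninjured Hmgb2 ran from 51.2 to 199 CPM. EpA cells, at 141 CPM, lay within that span. For Smc4 the span was 8.54 to 68.9 CPM around 37.2 CPM in EpA cells, and for Pcna 4.27 to 53.8 CPM around 21.2 CPM.

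A wider list of 204 cell cycle genes that were not members, in 15 groups, was read in the same way. Of 163 measured, 84 were at least 2-fold higher in injured EpA cells and 4 lower, with a median log2 ratio of 1.15, beside the 10.9% and 11.3% of all genes. A gene near 0 in 1 library is measured only through the other, here as among all genes. The spindle group had 15 of 16 higher, with log2 ratios of 2.94 for the microtubule regulator Stmn1, 5.02 for Cdca8 and −0.37 for Ckap5. Cytokinesis genes had 6 of 7 higher, with 4.23 for Racgap1, 5.96 for anillin (Anln) and 0.27 for Diaph3. Kinetochore genes had 15 of 21 higher and 1 lower: Zwint stood at 0.48 and Hjurp at 0.56, and Nuf2, a core part of the microtubule attachment site, was lower, with 58.4 CPM in injured against 168 CPM in uninjured cells. The checkpoint group had 5 of 9 higher and 1 lower, with 2.24 for Mad2l1 and 0.35 for Bub3, and Chek2, a DNA damage kinase, at 87.4 CPM in injured against 222 CPM in uninjured cells. Nuf2 and Chek2 were the most abundant of their groups and, like Pttg1, stood high in uninjured cells.

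The replication and chromatin groups varied. Origin licensing had 7 of 10 higher, although its most abundant genes were near 0 (Gins4 −0.48, Tipin −0.05 and Orc2 −0.23), and forks and polymerases 7 of 19 (Rfc1 0.07, Rfc2 −0.10 and 2810417H13Rik, the clamp partner now named Pclaf, 4.61). Nucleotide synthesis had 5 of 10 higher (Paics 0.53, Dut 2.06 and Dctpp1 2.19), homologous recombination 3 of 5 (Brca2 0.39 and Brca1 2.40), and histones and chromatin assembly 8 of 14 with 1 lower (Hmgb1 −0.10, H2afz 1.56 and H2afv 0.30). Condensin had 4 of 7 (Smc2 2.18, Ncaph2 0.57 and Ncapd3 0.30) and cohesin 3 of 8 (Smc3 0.05, Smc1a 0.43 and Stag1 0.10). The anaphase promoting complex had 3 of 15 higher (Ube2s 1.67, Anapc13 0.09 and Anapc11 −0.18), and cell cycle transcription factors 1 of 14 higher and 1 lower (Rbbp4 0.41, Rb1 0.20 and Tfdp2 −0.12). Other cyclins and kinases had 1 of 4 higher (Cdk4 0.80, Cks1b 3.81 and Cdk6 −0.54). The centriole genes of multiciliated cells, which share machinery with the centrosome cycle, had 1 of 4 higher (Cep63 −0.97, Ccp110 −0.84 and Sass6 0.42).

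These genes were not used to make the ranges, so they could be compared between them within the injured library. Against cells with neither phase, 148 of 193 measured genes were at least 2-fold higher in cells with both phases (9.51% of all genes), 87 of 163 in the G2 and mitosis range (5.33% of all genes) and 64 of 135 in the S phase range (4.49% of all genes). Lower by 2-fold were 3, 3 and 1 of them, against 15.1%, 9.10% and 2.61% of all genes. Each share is over the genes measured in that range, so the gene sets of 2 ranges differ and their shares are not a test. Origin licensing had 8 of 10 higher in the S phase range and 2 of 6 in the G2 and mitosis range, and forks and polymerases 15 of 21 and 8 of 18. Spindle genes had 4 of 6 higher in the S phase range and 17 of 18 in the G2 and mitosis range, and cytokinesis genes 2 of 4 and 7 of 7. Checkpoint genes had 4 of 7 and 7 of 11, and histones and chromatin assembly 6 of 13 and 7 of 13. Pclaf transcripts were at 90.7 CPM in the S phase range, 343 CPM with both phases and 60.3 CPM in the G2 and mitosis range, against 4.54 CPM with neither. Cdca8 ran 11.8, 213 and 146 CPM, against 1.76 CPM with neither. In cells with neither phase, 4 of 99 measured genes were at least 2-fold higher in injured than in uninjured cells and 4 lower, shares near the 6.59% and 5.58% of all genes.

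Cells with core genes of either phase were also found among kept cells outside EpA. At 5000 UMIs at least 2 core G2 and mitosis genes were present in 76 of 168 injured cells (45.2%, 37.6 to 53.1), against 5 of 93 uninjured cells (5.38%, 1.77 to 12.1), and at least 2 core S phase genes in 69 (41.1%, 33.6 to 48.9) against 4 (4.30%, 1.18 to 10.6). Without thinning, over all 224 injured and 156 uninjured cells, these shares were 54.5% and 14.1%, and 54.5% and 12.2%. Within the injured library the EpA cells stood at 19.2% for the G2 and mitosis genes and 16.4% for the S phase genes, below the cells outside EpA. Left out as shallower than 5000 UMIs were 56 injured and 63 uninjured cells outside EpA. Without shared barcodes, which removed 6 of the 168 injured cells, the shares outside EpA were 43.2% and 38.9%.

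Clusters made without the members placed these cells. Of 74 injured cells outside EpA in the endothelial-like cluster 55 (74.3%, 62.8 to 83.8) held 2 core genes of either phase, and so did 11 of 22 (50%, 28.2 to 71.8) in the microglia and macrophage-like and 13 of 25 (52.0%, 31.3 to 72.2) in the fibroblast-like cluster. In the uninjured library the last 2 had 1 of 22 and 0 of 10, and the endothelial-like cluster held no cell outside EpA of this depth. The endothelial-like cluster also held 7 EpA cells and the fibroblast-like cluster 1, all from the uninjured library. A 0 of 10 allows a share of up to 30.8%. The astrocyte-like cluster had 1 of 3 injured and 0 of 22 uninjured cells, and a cluster led by hemoglobin and endothelial genes, left unnamed, had 1 of 25 and 2 of 35. In the cells like T, B and NK cells 0 of 7 injured cells qualified, at a median of 9264 UMIs, and their core G2 and mitosis genes summed to 109 CPM, against 1752 CPM in injured EpA cells at a median of 20491.5 UMIs. Median depth in the injured clusters was 45479.5 UMIs for the endothelial-like, 33305.5 for the microglia and macrophage-like and 32346 for the fibroblast-like cells. Mitosis genes per summed UMI of the kept cells outside EpA were also high in the injured library, with Mki67 at 164 CPM in injured and 25 CPM in uninjured cells and Birc5 at 191 CPM against 18.7 CPM. Of the 32 uninjured Mki67 UMIs, 3, 12 and 13 came from the 3 uninjured cells with both phases described next.

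The 3 uninjured cells outside EpA with both phases stood apart. They clustered with EpA cells in a cluster whose leading genes included S100a8, S100a9 and Elane, genes of granulocytes and their precursors, and held 10600, 37396 and 40485 UMIs. They carried no Foxj1, Sox9 or Sox2 UMIs. One held 7071 S100a8 UMIs and another 880 Elane UMIs. Pttg1 was lower outside EpA in both libraries, at 48.9 CPM in injured and 90.5 CPM in uninjured cells, and Kif11 and Tpx2 outside EpA were higher in the injured library, at 32.0 against 8.58 CPM and 90.7 against 10.9 CPM.

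**Figure D5:**
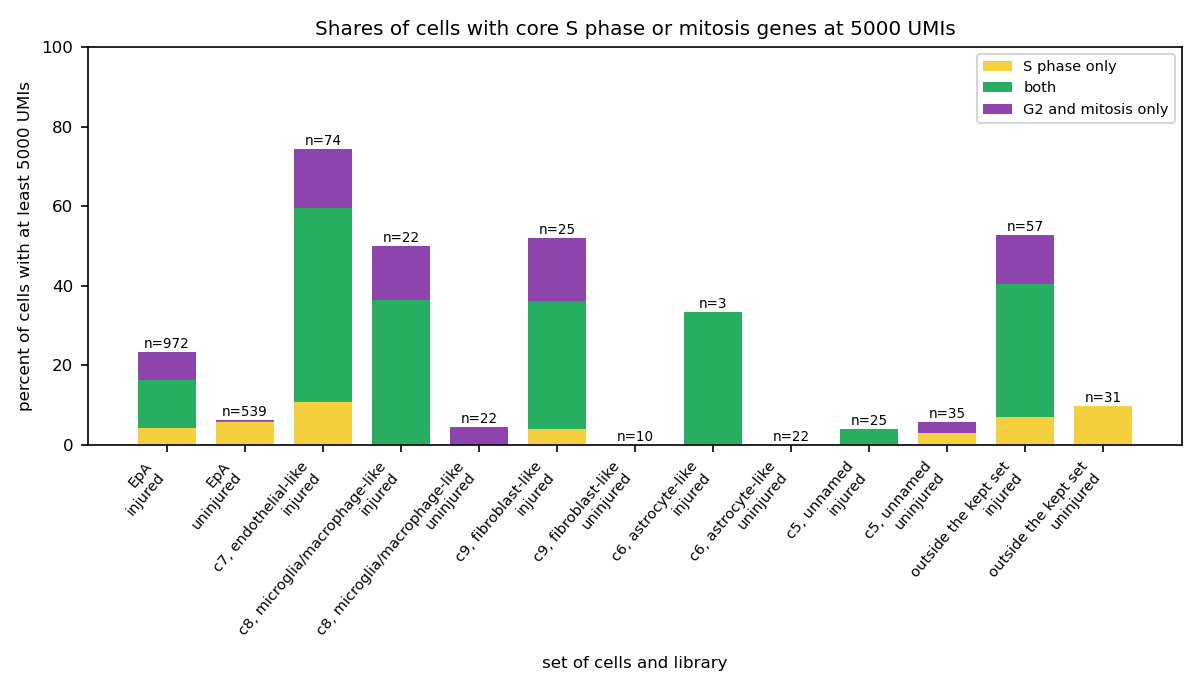
Percent of cells with at least 5000 UMIs that held at least 2 core genes of S phase only, both phases or G2 and mitosis only, in EpA cells, in clusters of kept cells outside EpA and in barcodes outside the kept set, with the number of cells above each bar. The injured endothelial-like bar is tallest at 74.3%, and injured EpA cells reach 23.4% against 6.31% in uninjured EpA cells.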

How the data were processed

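Single-cell 3′ libraries (10x Genomics v2) were aligned with Cell Ranger 3.0.1 to mm10 and handled in Seurat, whose version is not given, per the submitters' processing notes. The authors deposited whole-number UMI counts per gene and cell, 1 table per library (1566 injured and 876 uninjured barcodes) and tables of the 1228 and 711 kept cells and of the EpA cells. The members and lists were chosen with earlier results of these data known. Counts were summed over EpA cells, scaled to CPM, and compared as log2 ratios with 0.5 counts added. Levels have exact Poisson intervals, ratios exact conditional binomial ones and shares Clopper-Pearson ones, at 95%. Intervals cover counting error only. Genes averaging under 5 CPM over both sides of a comparison were not measured. Cells were thinned once, without replacement, to 5000 UMIs. Kept cells were clustered without member and pathway genes (2000 variable genes, 20 components, 15 neighbours, Leiden resolution 0.5), and clusters were named from at least 3 markers. Doublets were called with Scrublet and kept. All members were named, with the 3 most abundant genes of each pathway list, and outside the lists the 8 genes highest in a range against cells with neither phase; some of these genes are not reported here. Alternatives covered scaling (TMM, edgeR 4.0.16), cell weighting, floors, thinning depth, gene limits and cell filters. With 1 library per group, none could be left out. The fold calculation was tested on simulated data. Promoters are RefSeq windows matched by symbol. Work used Python 3.11.15, numpy 2.4.6, scipy 1.17.1, pandas 2.3.3, scanpy 1.11.5, leidenalg 0.10.2, matplotlib 3.10.9 and R 4.3.3.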

Additional observations from a re-analysis of the deposited data

Results flagged for a closer look

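Mitosis genes were also present in barcodes that the authors did not keep. Of 57 injured barcodes outside the kept set with at least 5000 UMIs, 26 (45.6%, 32.4 to 59.3) held at least 2 core G2 and mitosis genes, against 0 of 31 such uninjured barcodes, which allows a share of up to 11.2%. These barcodes enter no comparison of EpA cells. Median depths were 7802 UMIs in injured and 6906 UMIs in uninjured barcodes, and 281 injured and 134 uninjured barcodes were shallower and left out. At least 2 core S phase genes were present in 40.4% of the injured and 9.68% of the uninjured barcodes. Without shared barcodes the G2 and mitosis share was 44.6% in injured barcodes and 0 of 30 in uninjured ones.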

How the results depend on the processing

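No paired analysis was possible because each group has 1 library. Of 561 log2 ratios of single members under 11 alternatives, 364 stayed within their counting interval, 196 moved, and 1 reversed: Rrm2 was −0.0006 without cells holding the other phase. The S phase count and median were 9 and 1.25 with every cell weighted alike, 9 and 1.10 thinned to 5000 UMIs, 4 and 1.45 with a floor of 50 CPM in either library, and 1 and 0.15 without cells holding the other phase, and the median was 3.22 on UMIs per cell without scaling. The G2 and mitosis median was 2.02 with cells alike, 3.77 thinned, 5.45 unscaled, 3.99 in cells of at least 1000 UMIs and under 10% mitochondrial UMIs, 3.46 without cells holding the other phase, 3.92 over all deposited barcodes and 5.26 without the uninjured cell richest in mitosis genes, and its count was 16 of 18 at the 50 CPM floor. The call of Pttg1 as 2-fold lower was lost with cells alike (−0.88), thinned (−0.87) and unscaled (−0.42). The causes were not tested beyond what each setting removes.

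Shares moved mainly with depth and with the genes counted. In injured EpA cells, S phase alone, both and G2 and mitosis alone were 2.32% and 6.65% for the first 2 at 2000 UMIs, 9.44%, 18.5% and 10.2% at 10000 UMIs, 13.9% and 26.4% for the first 2 unthinned, 1.95% and 9.26% with 3 genes, 16.5%, 20.1% and 14.1% with 1 gene, 15% and 16.5% with members under 50 CPM, and 9.16%, 22.3% and 33.2% with all members. Cells with both were 14.5% among cells under 10% mitochondrial UMIs. In uninjured EpA cells, S phase alone was 1.10% at 2000 UMIs, 12.9% at 10000, 19.3% unthinned, 0.928% with 3 genes, 23.7% with 1, 21.2% with members under 50 CPM and 3.53% with a second seed. Both phases were found in 2.34% unthinned, 5.01% with 1 gene, 2.60% with members under 50 CPM and 17.1% with all members, and G2 and mitosis alone in 3.41% at 10000 UMIs, 6.31% unthinned, 0% with 3 genes, 8.72% with 1, 5.38% with members under 50 CPM and 48.6% with all members. In injured cells outside EpA, S phase and G2 and mitosis genes were present in 17.6% and 31.2% at 2000 UMIs, 51.5% and 56.6% at 10000, 54.5% each unthinned, 59.5% and 63.1% with 1 gene, and 49.4% and 67.9% with all members. S phase genes alone moved to 23.2% there with 3 genes and 49.4% with members under 50 CPM. In uninjured cells outside EpA, S phase genes were present in 18.4% at 10000 UMIs, 12.2% unthinned, 26.9% with 1 gene and 17.2% with members under 50 CPM or all members, and G2 and mitosis genes in 14.1% unthinned, 19.4% with 1 gene and 29.0% with all members. An alternative chosen after seeing the data, counting members under 5 CPM only, gave 1.44%, 5.86% and 10.7% in injured EpA cells, 1.11% S phase alone in uninjured ones, and 14.9% with S phase genes in injured cells outside EpA. Leaving out shared barcodes or cells under 2000 UMIs, also chosen after seeing the data, moved none of these counts or medians beyond their limits.

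With 1 library per group, animals, dissection and library cannot be told apart from injury. Depth limits every share of cells, and most cells of the S phase range sit at the limit of 2 genes.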

Other observations

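Outside the members and pathway lists, the genes highest in a range of injured EpA cells against cells with neither phase included the following. In the G2 and mitosis range Pbk, a mitotic kinase, had 153 CPM against 1.09 CPM, Cdca3 177 CPM against 2.03 CPM, Cdkn3, a phosphatase of Cdk proteins, 70.9 CPM against 0.814 CPM, and Knstrn, a kinetochore protein, 165 CPM against 4.88 CPM. Fam64a had 121 CPM in 29 cells, against 1 UMI in the cells with neither. Lockd (173 against 10.1 CPM) and Hmga2 (53.3 against 6.37 CPM) were also among the 8, as was the cytokine Il11, at 167 CPM against 3.80 CPM, from 5 cells.

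In the S phase range few of these genes belong to the cell cycle. Spp1, osteopontin, had 1741 CPM against 326 CPM with neither and was found in 17 of 40 cells, and Ccnd1, the G1 cyclin D1, 316 CPM against 71.5 CPM in 19 cells. F3, tissue factor, had 111 CPM against 23.8 CPM, and Tpm2, a tropomyosin, 63.5 CPM against 12.8 CPM. Cd74 (81.6 against 0.475 CPM) came from 1 cell, Il11 (55.3 against 3.80 CPM) from 3 and Hmox1 (69.8 against 18.2 CPM) from 4.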
